A study of Mus musculus with 13 samples.

Results

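The genes described here are 9 members of the IL-17 and IL-22 program of T cells: the cytokine genes Il22, Iltifb, Il17a and Il17f, the receptor genes Il23r and Il1r1, the transcription factor genes Rora and Ahr, and the chemokine receptor gene Ccr6. They were taken by symbol from the 55774 entries of the expression table, all 9 were found, and all 9 were among the 15781 genes that passed the filter on low counts. The members were chosen by their CPM (counts per 1 M counts) in the T cells alone and in both co-cultures compared here. Their levels in those groups are therefore given as a description. Calls of members between those groups are counted but are no test of them. Tests on the members are limited to the batch days, which the choice did not use.

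T cells of the Th17 and Th22 types secrete IL-17A, IL-17F and IL-22 and act mainly on epithelial and stromal cells, where these cytokines induce chemokines, antimicrobial peptides and repair genes. The program is started by IL-6 with TGF-beta and stabilised by IL-23 and IL-1, and it runs through transcription factors that include RORalpha and STAT3. The aryl hydrocarbon receptor, a ligand-activated transcription factor, is needed for much of the IL-22 made by CD4+ T cells. In the NOD mouse, a strain that develops autoimmune diabetes spontaneously, T cells of this kind are found in and around inflamed islets beside the interferon-gamma-producing Th1 cells that dominate there.

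RNA was sequenced from naive splenic CD4+ T cells of female BDC2.5 mice, which carry Tg(TcraBDC2.5,TcrbBDC2.5)1Doi on the NOD/ShiLtJ background. The transgenes encode a receptor for an antigen of beta cells and are present in the T cells of every group. The T cells were taken alone (4 libraries) or after 96 hours with bead-enriched islet macrophages of NOD mice that had received buffer (control-macrophage co-culture, 4 libraries) or STZ (STZ-macrophage co-culture, 5 libraries) at a single low dose, in either case at 4 weeks of age, with islets taken 10 days later at 5.5 weeks. STZ is streptozotocin, a toxin taken up by beta cells. The sequenced cells were sorted for CD45, Thy1.2 and CD4 among live cells. The labels give 2 batches, named day 1 and day 2. All 4 libraries of cells alone, control replicates 1, 2 and 4 and STZ replicates 1 and 5 are of day 1, and control replicate 3 and STZ replicates 2, 3 and 4 are of day 2. Whether the cells alone spent time in culture is left unsaid in the labels, which call the replicates biological without naming the mice behind each, so p-values measure the spread between these libraries. Totals were 17.3 to 61.3 M estimated counts, and 1 count is worth 0.0164 to 0.0444 CPM. Each CPM value is scaled to the library's filtered total and its TMM factor.

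The cytokine genes lie in 2 pairs of neighbours. Il22 (chr10:118204942-118210047, plus strand) and Iltifb (chr10:118289629-118295038, minus strand) are copies of 1 gene, 79.6 kb apart on GRCm38. Their coding sequences of 537 bases each differ at 9 bases and are 98.3% identical. Only 7.7% of the 962 windows of 150 bases, the read length, in the Iltifb transcript have an exact copy in Il22, but the sources used here do not say how reads that match both were assigned, so the split between these genes is uncertain. Il17a (chr1:20730905-20734496, plus strand) and Il17f (chr1:20777146-20790617, minus strand) lie 42.6 kb apart. The other members are on chromosomes of their own or distant from these: Il1r1 (chr1:40225080-40317257), Il23r (chr6:67422932-67491855), Rora (chr9:68653786-69388246), Ahr (chr12:35497974-35535038) and Ccr6 (chr17:8236043-8257141). The libraries do not keep the strand, and genes on the other strand overlap 0.627% of the exonic bases of Rora (Gm15511) and 2.06% of those of Ahr (Gm48236). No exon of another gene overlaps the other 7 members.

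The promoters of the 4 cytokine genes are shown because these genes were high in the same libraries. RefSeq (GRCm38.p6) has entries for 8 of the 9 members, each with 250 bases before and 50 after the annotated start. Capitals mark AGGTCA on either strand (TGACCT on the strand shown), the core of the element that RORalpha binds.
Il22, chr10:118204714-118205013, plus strand: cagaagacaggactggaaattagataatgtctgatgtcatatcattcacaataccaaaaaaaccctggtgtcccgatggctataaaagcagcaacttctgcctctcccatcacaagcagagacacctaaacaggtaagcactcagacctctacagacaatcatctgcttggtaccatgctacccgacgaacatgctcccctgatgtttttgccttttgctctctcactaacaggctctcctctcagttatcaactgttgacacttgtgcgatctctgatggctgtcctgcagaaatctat
Iltifb, chr10:118294989-118295288, minus strand: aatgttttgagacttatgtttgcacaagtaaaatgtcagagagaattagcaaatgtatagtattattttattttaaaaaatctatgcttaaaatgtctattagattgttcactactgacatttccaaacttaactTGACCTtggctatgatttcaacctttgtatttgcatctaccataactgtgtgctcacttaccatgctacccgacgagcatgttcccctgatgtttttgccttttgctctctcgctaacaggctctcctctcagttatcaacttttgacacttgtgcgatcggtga
Il17a, chr1:20730655-20730954, plus strand: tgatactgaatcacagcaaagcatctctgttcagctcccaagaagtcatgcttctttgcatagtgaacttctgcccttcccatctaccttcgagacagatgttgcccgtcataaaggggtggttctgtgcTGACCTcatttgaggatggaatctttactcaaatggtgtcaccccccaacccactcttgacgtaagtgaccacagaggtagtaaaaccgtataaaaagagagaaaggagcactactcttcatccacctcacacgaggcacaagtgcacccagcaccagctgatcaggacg
Il17f, chr1:20784221-20784520, minus strand: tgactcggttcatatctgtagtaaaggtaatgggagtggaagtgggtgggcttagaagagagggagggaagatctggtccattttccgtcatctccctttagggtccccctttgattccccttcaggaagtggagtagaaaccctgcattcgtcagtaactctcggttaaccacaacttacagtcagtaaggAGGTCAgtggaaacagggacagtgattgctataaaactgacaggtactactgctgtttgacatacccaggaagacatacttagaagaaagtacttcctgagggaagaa

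Of all 32817 promoters of this length, 16.3% held AGGTCA. It was found 115 bases before the start of Iltifb, 120 before that of Il17a and 58 before that of Il17f, and these letters were not in the window of Il22. The promoters of Il22 and Iltifb were 76.7% identical over their aligned bases. Il23r held the core at 229 and 66 bases before the start, and 1 of the 2 Ccr6 promoters at 44. GCGTG, the core of the element bound by the aryl hydrocarbon receptor (32.4% of promoters), was matched in Rora, 167 bases before the start, and in both Il1r1 promoters. TTCNNNGAA, the STAT element (8.29% of promoters), was matched only in that same Ccr6 promoter, at 157 and 120 bases before the start. Both strands were searched for each, no matches of different motifs overlapped, and a match is a description of the letters only.

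Il22 encodes IL-22, which acts on epithelial cells and not on blood cells. No count of Il22 was found in any of the 4 libraries of cells alone. In the control-macrophage co-cultures it was at 9.4, 13, 12.4 and 25.1 CPM in replicates 1 to 4, a mean of 15 ± 6.92 CPM (SD, n = 4). In the STZ-macrophage co-cultures it was at 367, 51.4, 76.3, 228 and 410 CPM in replicates 1 to 5, a mean of 227 ± 163 CPM (SD, n = 5). The groups did not overlap, and the 2 STZ libraries of day 1 were the highest, above the 3 of day 2. With batch day in the model, the log2 fold change between the co-cultures was 4.07 ± 0.57 (SE). In these bulk libraries, more cells with a transcript and more transcript per cell cannot be told apart, here and for every gene below.

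Iltifb, a second copy of Il22 found in some mouse strains, was lower than Il22 in all 9 co-cultures. It was at 0.517, 0.739, 0.432 and 1.75 CPM in the control-macrophage co-cultures and at 19.7, 2.11, 4.21, 14 and 28.1 CPM in the STZ-macrophage co-cultures, with no count in the cells alone. The groups did not overlap, and the log2 fold change was 4.35 ± 0.7 (SE). Iltifb made up 3.36 to 6.53% of the counts of the pair in the 9 co-cultures, and the ranges in the control (3.36 to 6.53%) and the STZ group (3.94 to 6.41%) overlapped. With the counts of both genes summed, the log2 fold change of the pair was 4.08. Over the 9 co-cultures the log2 CPM of the 2 genes correlated at 0.99 (Pearson's r). How many of the counts given to Iltifb are reads of Il22 was not tested.

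Il17a and Il17f encode the cytokines that pair with themselves or each other to bind the IL-17 receptor on epithelial and stromal cells. Il17a was at 0.62, 0.197, 1.11 and 0.264 CPM in the control-macrophage co-cultures and at 7.87, 6.46, 8.31, 10.4 and 9.2 CPM in the STZ-macrophage co-cultures. These STZ libraries spread the least of the 4 cytokine genes relative to their mean (8.46 ± 1.49 CPM, SD, n = 5), the days overlapped within them, and the log2 fold change was 3.89 ± 0.55 (SE). Il17f was at 13.2, 12.4, 37.5 and 28.1 CPM in the control-macrophage co-cultures and at 116, 45.4, 80.9, 142 and 119 CPM in the STZ-macrophage co-cultures, a log2 fold change of 2.12 ± 0.45 (SE). Its groups did not overlap either, but the highest control library, replicate 3 of day 2, was at 37.5 CPM and the lowest STZ library at 45.4 CPM. Neither gene had a count in the cells alone.

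**Figure D1:**
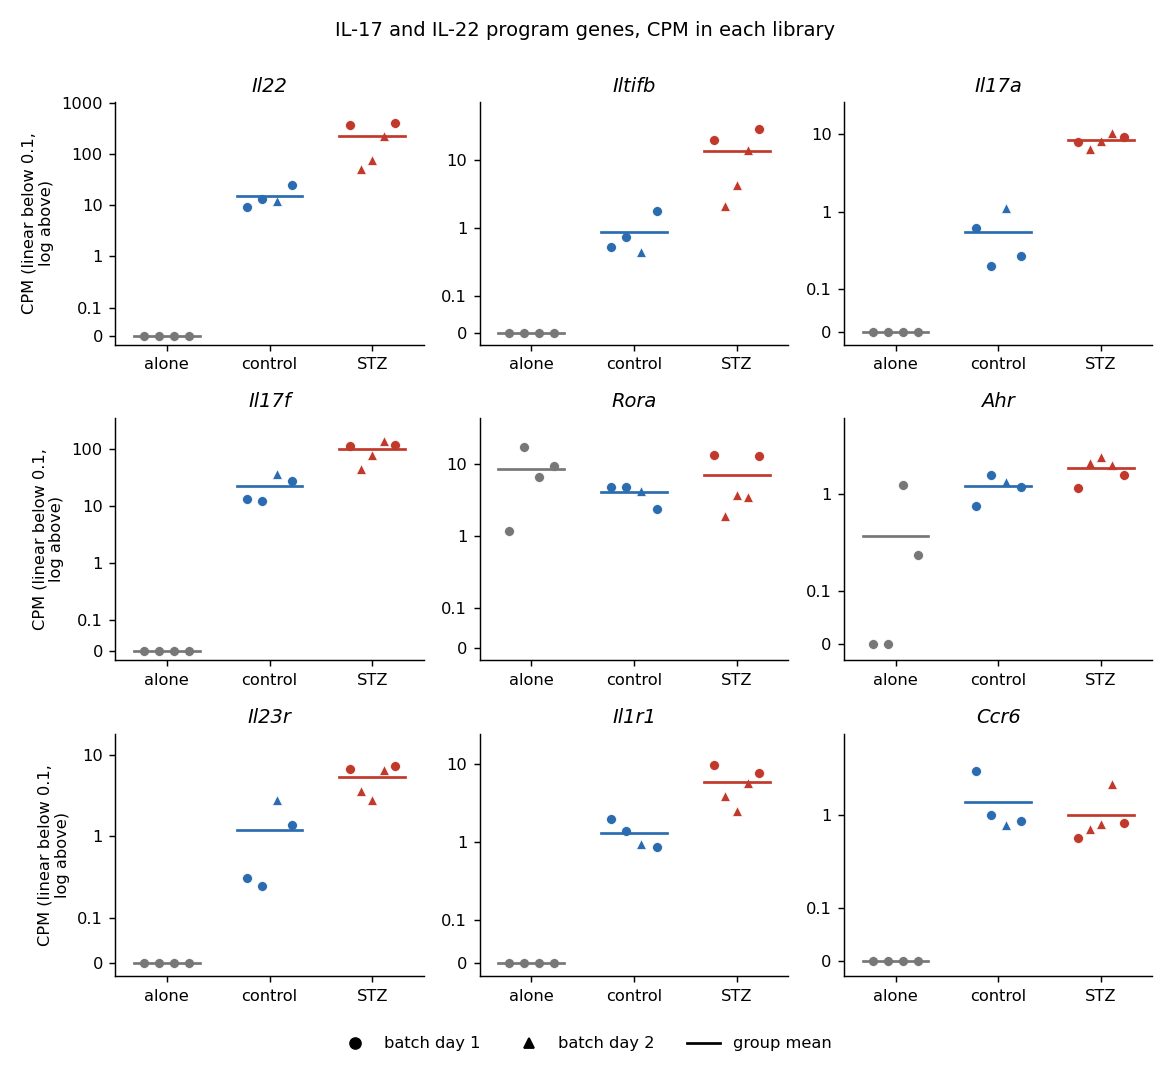
Level of each of the 9 genes in each of the 13 libraries, in CPM on an axis that is linear below 0.1 and logarithmic above. Columns are cells alone, control-macrophage and STZ-macrophage co-culture, circles are day 1, triangles day 2, and lines group means. Il22 runs from 9.4 to 25.1 CPM in the control and from 51.4 to 410 CPM in the STZ group, while Rora and Ccr6 overlap between them.

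Il23r encodes the subunit that gives the IL-23 receptor its specificity, and Il1r1 the signalling receptor of IL-1, and both signals sustain Th17 cells. Il23r was at 0.31, 0.246, 2.84 and 1.38 CPM in the control-macrophage co-cultures and at 6.69, 3.62, 2.83, 6.66 and 7.32 CPM in the STZ-macrophage co-cultures. The groups met at one point, with control replicate 3 at 2.84 and STZ replicate 3 at 2.83 CPM, both of day 2, and the log2 fold change was 2.23 ± 0.76 (SE). Il1r1 was at 2, 1.4, 0.956 and 0.857 CPM in the control-macrophage co-cultures and at 9.85, 3.98, 2.51, 5.79 and 7.73 CPM in the STZ-macrophage co-cultures, without overlap, a log2 fold change of 2.42 ± 0.46 (SE). Neither receptor had a count in the cells alone.

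Rora encodes RORalpha, which acts on Th17 genes, and it differs from the members above in that resting T cells already had it. It was at 1.2 to 17.6 CPM in the cells alone, with a mean of 8.78 ± 6.85 CPM (SD, n = 4), and at 4.82, 4.93, 4.32 and 2.37 CPM in the control-macrophage co-cultures. The STZ-macrophage co-cultures split by day, with 13.5 and 13.1 CPM in replicates 1 and 5 of day 1 and 1.9, 3.77 and 3.48 CPM in replicates 2, 3 and 4 of day 2. The range of the cells alone covered both co-culture groups, and the log2 fold change between the co-cultures was 0.8 ± 0.64 (SE), and 1.86 without control replicate 3. Ahr, the aryl hydrocarbon receptor gene, was at 0 to 1.23 CPM in the cells alone, with a count in 2 of 4 libraries. It was at 0.758, 1.59, 1.33 and 1.19 CPM in the control-macrophage and at 1.15, 2.11, 2.45, 2 and 1.58 CPM in the STZ-macrophage co-cultures, which overlapped, with a log2 fold change of 0.4 ± 1.03 (SE), and 1.76 with a replicate block.

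Ccr6 encodes the receptor by which Th17 cells follow the chemokine CCL20. It was at 2.89, 0.986, 0.771 and 0.857 CPM in the control-macrophage and at 0.564, 0.705, 0.796, 2.13 and 0.804 CPM in the STZ-macrophage co-cultures. The groups overlapped, and 1 library stood above the rest in each. The log2 fold change was -0.56 ± 0.79 (SE), and 0.01 without control replicate 1.

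The comparison of the co-cultures, which the choice of members used, had 51 called genes, or 0.323% of the 15781 tested (edgeR's quasi-likelihood test, Benjamini-Hochberg adjusted p under 0.05), 24 higher and 27 lower. Under median-ratio (RLE) scaling in place of TMM the split was 30 higher and 14 lower, and with library totals alone 38 and 19, and under RLE the median log2 fold change of all genes moved from -0.13 to -0.03. Of the 9 members, 3 (Il22, Iltifb and Il17a) were among the called genes and 8 had a positive log2 fold change. Because the members were chosen on these libraries, such counts describe the choice and are no test of the members. In 5 members every STZ library was above every control library, as in 2.46% of all genes. How many members were called depended on the libraries in the fit. It was 6 of the 9 with the 9 co-cultures alone, where 2698 genes (18.1% of 14881) were called. It was 0 without control replicate 1, 2 or 4 or without STZ replicate 1, 4 or 5. Those fits called only 0 to 6 genes in all, of 15551 to 16512 tested.

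Against the cells alone, 7106 genes (45%) were called in the control-macrophage co-culture and 6807 (43.1%) in the STZ-macrophage co-culture. With library totals alone as the scaling, 2912 were higher and 4639 lower in the control-macrophage comparison, where TMM gave 3641 higher and 3465 lower. Of all genes, 23.1% were called higher and 22% lower in the first comparison, and 20.8% and 22.3% in the second. The same 7 members were called higher in both, all but Rora and Ahr. The choice of members used these libraries, both comparisons share the cells alone, and nothing is read from the count. The 7 had 0 counts among the 117 M counts of the 4 libraries of cells alone together, where 3 counts would be 0.0224 CPM, so no fold change is given. In the control-macrophage co-culture the means of these 7 genes ran from 0.548 CPM for Il17a to 22.8 CPM for Il17f.

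Divided by exonic length, the order of the mean levels in the STZ-macrophage co-culture was Il22 (204 CPM per kb), Il17f (49.8), Iltifb (11.9), Il17a (7.22), Il23r (2.18), Il1r1 (0.939), Rora (0.548), Ccr6 (0.431) and Ahr (0.302). In the control-macrophage co-culture it was Il22 (13.5 CPM per kb), Il17f (11.3), Iltifb (0.749), Ccr6 (0.593), Il23r (0.48), Il17a (0.468), Rora (0.315), Il1r1 (0.205) and Ahr (0.197). In the control group Il22 and Il17f overlapped (8.47 to 22.6 against 6.11 to 18.6 CPM per kb) and lay above all other members, whose neighbours in this order overlapped too. In the STZ group the ranges of Il22 (46.3 to 369 CPM per kb), Il17f (22.5 to 70), Iltifb (1.84 to 24.5) and Il17a (5.51 to 8.92) each overlapped with the next, although Il22 was above Il17f within each of the 5 libraries. Il17a lay above Il23r (1.14 to 2.94) without overlap, and from Il23r to Ahr each gene overlapped with the next.

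Of 4 ratios between the cytokine genes, 1 separated the co-cultures and 3 overlapped, the Iltifb percentage above among them. Counts per kb of Il17f were 12.3, 36.3, 19.6 and 61.7 times those of Il17a in control replicates 1 to 4, and 8.56, 4.08, 5.64, 7.85 and 7.5 times in STZ replicates 1 to 5. The groups did not overlap, and the STZ libraries all lay below the control libraries. Counts per kb of Il22 were 1.3, 1.92, 0.603 and 1.63 times those of Il17f in the control and 5.75, 2.06, 1.72, 2.93 and 6.27 times in the STZ libraries. Control replicate 2 at 1.92 was above STZ replicate 3 at 1.72, and the 2 STZ libraries of day 1 again stood highest. Counts per kb of Il22 were 16, 69.7, 11.8 and 100 times those of Il17a in the control and 49.3, 8.4, 9.69, 23 and 47 times in the STZ libraries, and these ranges overlapped widely. The ratios are made from the same values as the levels above and are not tested. The low Il17a counts of the control libraries make their Il17f to Il17a ratios imprecise.

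**Figure D2:**
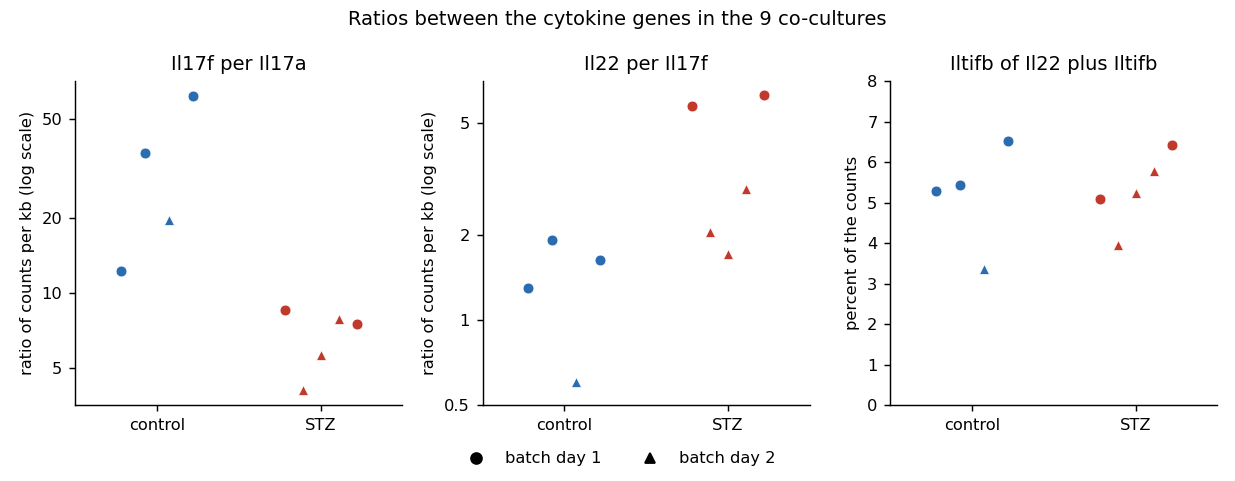
Ratios between cytokine genes in the 9 co-cultures, as counts per kb on log axes (Il17f per Il17a, Il22 per Il17f) and as the percentage of Iltifb in the Il22 and Iltifb counts on a linear axis. Circles are libraries of day 1 and triangles of day 2. Il17f per Il17a lies at 12.3 to 61.7 in the control and 4.08 to 8.56 in the STZ group, while the Iltifb percentage overlaps.

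Whether the members differed between the batch days of the co-cultures was tested with group in the model, where 497 genes (3.15%) were called. Of these, 332 were higher on day 2 and 165 lower, while RLE scaling gave 65 and 85 and library totals alone 70 and 120. None of the 9 members passed (0 called by edgeR, and 0 by DESeq2, which called 2620 genes in all). Limma on the authors' adjusted table called 0 genes in all between days. Its 0 of 7 members therefore cannot set them apart from other genes, and nothing is read from it. With edgeR, 2 members had an unadjusted p under 0.05, as did 28.9% of all genes. Il22 was lower on day 2 by a log2 fold change of -1.16 ± 0.5 (SE; 95% interval -2.3 to -0.03; edgeR adjusted p = 0.162), and Iltifb by -1.6 ± 0.63 (SE; -3.03 to -0.17; edgeR adjusted p = 0.134). With the 9 co-cultures alone in the edgeR fit, Rora (-1.4, adjusted p = 0.0478) and Il1r1 (-1.08, adjusted p = 0.048) passed, against -1.2 and -0.9 with all libraries (edgeR adjusted p = 0.236 and 0.203). That fit called 29.6% of all genes. The other log2 fold changes by day were 0.61 for Il17a, 0.2 for Il17f, 0.49 for Ahr, 0.49 for Il23r and 0.18 for Ccr6, none past the threshold.

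The difference between days of the STZ effect was tested as an interaction, in which 1 gene (0.00634%) was called. The lone control library of day 2 is taken to have the same spread as the rest. None of the 9 members passed (0 called by edgeR, 0 by DESeq2 and 0 of 7 by limma), and 1 had an unadjusted p under 0.05, against 9.82% of all genes. That gene was Il23r, whose STZ effect was 3.45 within day 1 and 0.62 within day 2 on the log2 scale, a difference of -2.82 ± 1.23 (SE; 95% interval -5.65 to 0; edgeR adjusted p = 0.498). For Rora the values were 1.72 and -0.5, a difference of -2.22 ± 1.21 (SE; -5.02 to 0.58; edgeR adjusted p = 0.63). Il22 had 4.62 and 3.25, Iltifb 4.58 and 3.96, Il17a 4.58 and 2.92, Il17f 2.72 and 1.25, and Il1r1 2.63 and 2.09 within days 1 and 2. The values of these 5 were positive on both days. The choice of members used the same libraries, and day 2 has 1 control library, so this is a description and no replication. Ccr6 had -1.2 and 0.64, and Ahr 0.21 and 0.72. The intervals of the 9 differences are wide, the narrowest running from -3.31 to 0.37 for Il17f.

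**Figure D3:**
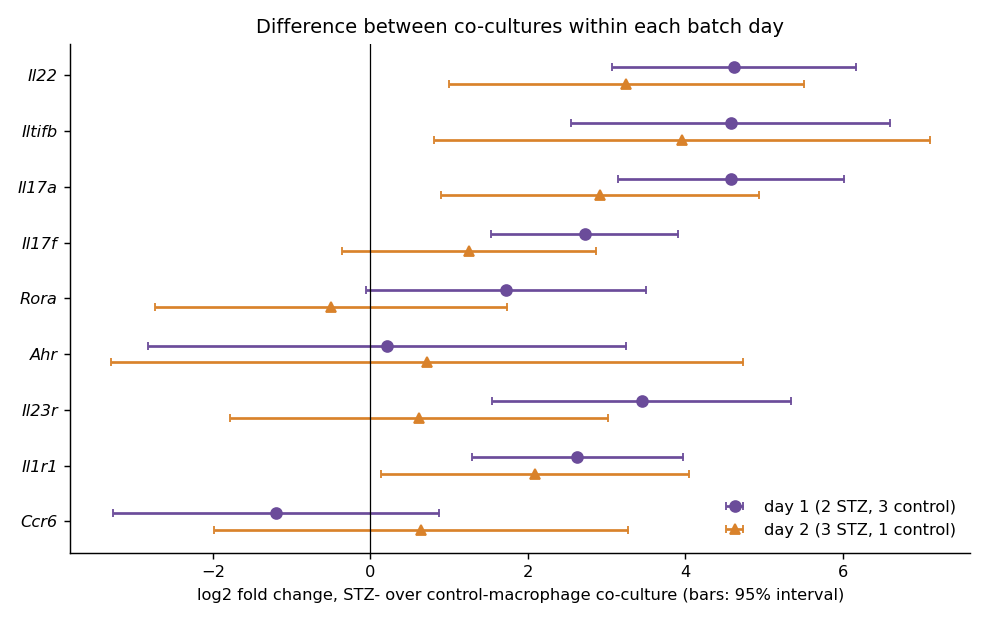
Log2 fold change of the STZ- over the control-macrophage co-culture within day 1 (2 STZ and 3 control libraries, circles) and within day 2 (3 STZ and 1 control library, triangles), with 95% intervals from the edgeR model. Il22 lies at 4.62 and 3.25, and Il23r at 3.45 and 0.62. The intervals of the 2 days overlap for all 9 genes.

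The transcription factors of the program were not among the members apart from Rora and Ahr, and none of 9 such genes passed between the co-cultures. Their median log2 fold change was 0.24, against -0.13 over all genes tested, and 7 of 9 were positive. Stat3, which carries the IL-6 and IL-23 signal, was at 409 and 380 CPM in the STZ libraries of day 1 and at 44.4 to 87.2 CPM in the other 7 co-cultures (edgeR adjusted p = 0.177). Rora had the same 2 highest libraries among the co-cultures, and cells-alone replicate 2 had 303 CPM of Stat3. The test of a difference between days in the STZ effect gave -2.59 ± 0.88 for Stat3 (SE; edgeR adjusted p = 0.337). Bhlhe40, a factor tied to cytokine production, was at 162 to 353 CPM in the control and 451 to 585 CPM in the STZ libraries (log2 fold change 1.04 ± 0.4, SE, edgeR adjusted p = 0.179).

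Of 11 receptor and kinase genes upstream of the program, 1 was called between the co-cultures. Il6ra, the IL-6 receptor chain that is shed as T cells activate, was lower, at 2.75 to 7.2 CPM in the control and 0.781 to 1.49 CPM in the STZ libraries (log2 fold change -1.78 ± 0.33, SE, edgeR adjusted p = 0.04998). It was at 55.8 to 133 CPM in the cells alone. This call held under 7 of 22 other settings and was lost without any 1 of the 9 co-culture libraries or cells-alone replicate 3 (edgeR adjusted p = 0.0767 to 0.245), while the log2 fold change stayed between -2.07 and -1.57. Il1r2, the decoy receptor that binds IL-1 without signalling, had no count in the cells alone, was at 0.654 to 2.19 CPM in the control and at 3.39 to 5.98 CPM in the STZ libraries, but did not pass (1.91 ± 0.46, SE, edgeR adjusted p = 0.124). Il18r1 (-0.91, edgeR adjusted p = 0.148) and Il1rap (-0.74, edgeR adjusted p = 0.166) did not pass either. The median of the list was 0.04.

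None of the 8 tested genes of the aryl hydrocarbon receptor pathway passed between the co-cultures, and 2 of 8 were positive with a median of -0.18. Cyp1b1 and Cyp1a1 are classical targets of the receptor. Cyp1b1 was at 0.594 to 1.45 CPM in the control and 2.04 to 6.89 CPM in the STZ libraries (log2 fold change 2 ± 0.48, SE, edgeR adjusted p = 0.125). Cyp1a1 was at 1.18 to 3.2 CPM in the control and at 0 to 1.86 CPM in the STZ libraries (-4.11 ± 1.61, SE, edgeR adjusted p = 0.19), with 0 and 0.0554 CPM in the STZ libraries of day 1. The value for Cyp1a1 ran from -5.97 without control replicate 3 to -1.54 without the day term, and it passed under none of the 21 other settings that gave an adjusted p (DESeq2 gave none). Ahrr, the repressor induced by the receptor, which was picked after its values were seen, was at 15.8 to 29 CPM in the control and 14.3 to 38.2 CPM in the STZ libraries.

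Other effector and homing genes of Th17 and Th22 cells did not pass either, 0 of 10 tested of 12, with a median log2 fold change of -0.07. Il24, another cytokine of the IL-10 family, was at 13.7, 11.4, 42.9 and 18.1 CPM in the control and at 28.8 to 94.2 CPM in the STZ libraries (1.06 ± 0.24, SE, edgeR adjusted p = 0.111). Csf2, which encodes GM-CSF, was at 7.28 to 16.6 CPM in the control and 3.3 to 28.3 CPM in the STZ libraries (-0.92 ± 0.54, SE, edgeR adjusted p = 0.319). Cxcr6 had -0.58 (edgeR adjusted p = 0.334). Of the 12 genes of IL-17 and IL-22 receptors and other family members, 5 could be tested and 0 passed. Il22ra1, which encodes the specific chain of the IL-22 receptor, and the cytokine genes Il17b, Il17d and Il25 had no count in any of the 13 libraries. The other named members of that list were Traf3ip2 (-0.12, edgeR adjusted p = 0.751), Il10rb (-0.1, edgeR adjusted p = 0.807) and Il17re (3.02 ± 1.46, SE, edgeR adjusted p = 0.235), the last with at most 0.784 CPM.

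Of 13 tested genes that restrain the program, 0 passed and 10 were positive, with a median of 0.25. Foxp3, which encodes the factor of regulatory T cells, was at 107, 54.5, 15 and 59.3 CPM in the control and at 5.29, 11.6, 18.8, 20.2 and 6.85 CPM in the STZ libraries. The control library of day 2 lay within the STZ range, and the log2 fold change was -2.51 ± 0.84 (SE; edgeR adjusted p = 0.159). Within day 1, where 34 genes (0.215%) were called, Foxp3 was lower in the STZ group by -3.6 ± 0.59 (SE; edgeR adjusted p = 0.0367), and within day 2 the value was 0.17 ± 0.65 (SE; edgeR adjusted p = 0.941). The difference between the days was 3.77 ± 0.92 (SE; edgeR adjusted p = 0.264). Over both days Foxp3 passed under 2 of 22 other settings, DESeq2 (-2.41, adjusted p = 0.00495) and edgeR without control replicate 3 (-3.46, adjusted p = 0.0358). Stat5b had 1.41 ± 0.45 (SE; edgeR adjusted p = 0.151) and Socs3 1.27 ± 0.75 (SE; edgeR adjusted p = 0.305), the latter with 57.1 CPM in STZ replicate 1 against 3.95 to 10.3 CPM in the other co-cultures. Of 9 cytokine genes listed as driving the program, 8 could be tested, all 8 were positive with a median of 1.87, and 0 passed. Not all of these drive it. Ebi3, among the 8 tested, and Il27 encode the subunits of IL-27, whose receptor gene Il27ra is among the restraints. Il6 was at 0.033 to 0.401 CPM in the control and 0.236 to 2.07 CPM in the STZ libraries (2.6 ± 0.83, SE, edgeR adjusted p = 0.159), and Il23a at 0 to 0.586 and 0.707 to 2.19 CPM (3.54 ± 1.23, SE, edgeR adjusted p = 0.163). Tgfb1 had 2.24 ± 1.17 (SE; edgeR adjusted p = 0.259), with 60.9 CPM in STZ replicate 1. Markers of macrophages, the other cells in the culture, moved alike, with 9 of 9 tested positive, a median of 1.93 and 0 passing. Which cells the transcripts of these cytokine genes came from was not tested.

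Without adjustment, edgeR gave a p under 0.05 between the co-cultures to 3 of 9 transcription factor genes (all 3 higher), 6 of 11 receptor and kinase genes (2 higher, 4 lower), 2 of 8 aryl hydrocarbon receptor pathway genes (1 higher, 1 lower), 1 of 10 effector genes (higher), 0 of 5 receptor and family genes, 2 of 13 restraints (1 higher, 1 lower) and 2 of 8 driving cytokine genes (both higher), against 22.8% of all genes. With the 9 co-cultures alone in the edgeR fit, which called 18.1% of all genes (1498 higher and 1200 lower), the lists had more adjusted calls. These were 4 transcription factor genes higher, 1 receptor or kinase gene higher and 3 lower, 1 aryl hydrocarbon receptor pathway gene higher and 1 lower, and 1 effector gene, 1 restraint and 3 driving cytokine genes higher. Against the cells alone, the control-macrophage co-culture had 5 of 9 transcription factor genes higher and 1 lower, 2 of 11 receptor and kinase genes higher and 4 lower, and 3 of 8 aryl hydrocarbon receptor pathway genes higher and 1 lower (edgeR adjusted p under 0.05). It had 7 of 10 effector genes higher, 2 of 5 receptor and family genes lower, 3 of 13 restraints higher and 4 lower, and 4 of 8 driving cytokine genes higher, against 23.1% higher and 22% lower of all genes.

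**Figure D4:**
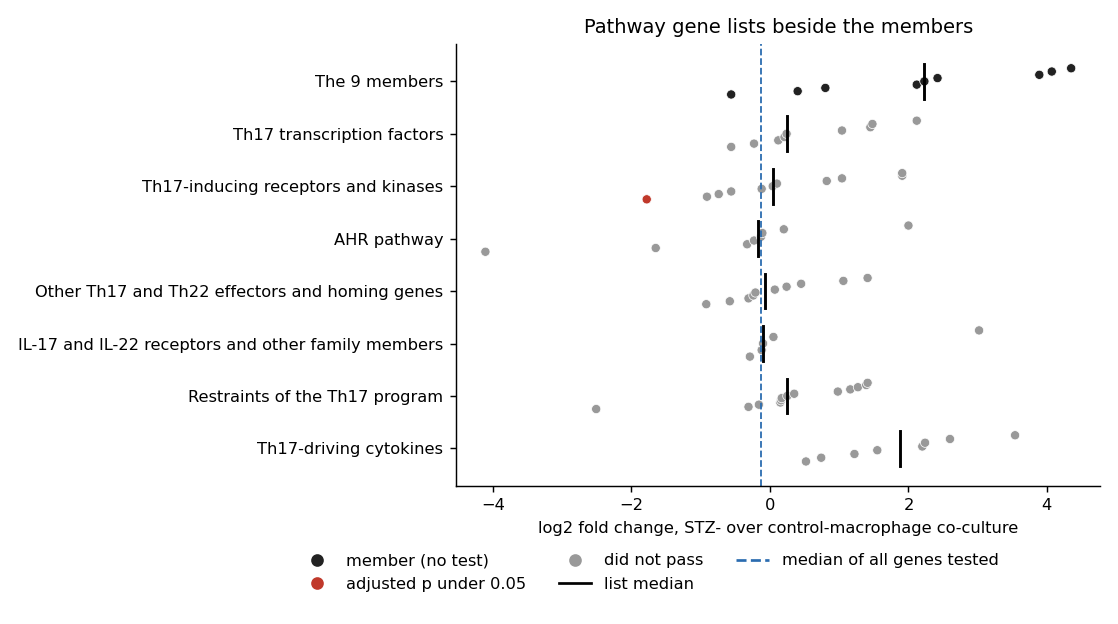
Log2 fold change of the STZ- over the control-macrophage co-culture for the 9 members (black, no test) and for the tested genes of 7 pathway lists, red where the edgeR adjusted p was under 0.05. Thick bars are list medians and the dashed line is the median of all genes tested, -0.13. Il6ra is the single red point, and the list of driving cytokines, which also holds Ebi3, has a median of 1.87.

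Between the batch days, 2 of 11 receptor and kinase genes were called lower on day 2, against 1.05% of all genes. These were Il6st (-1.48, edgeR adjusted p = 0.035), the shared chain of IL-6 family receptors, and Tyk2 (-1.73, edgeR adjusted p = 0.0492). In the effector list 2 of 10 genes, Il24 (1.44, edgeR adjusted p = 0.0303) and Gpr65 (1.17, edgeR adjusted p = 0.035), were called higher, against 2.1% of all genes. The other pathway lists had no call between days. These 4 genes are named after their values were seen, and the number of genes called by day ranged from 5 to 2476 when 1 library was left out (5 without STZ replicate 1, 4 or 5, and 2476 without cells-alone replicate 2).

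Of the markers of the labelled cells, Cd4 itself had means of 712 CPM in the cells alone, 1121 in the control and 895 in the STZ group. The 9 genes listed for CD4+ T cell identity, not all of them particular to these cells, summed to 7405 to 22455 CPM in all libraries. They were highest in control replicate 3 (22455 CPM) and at 12342 to 15547 CPM in the other control and 9215 to 12472 CPM in the STZ libraries, and 0 of 9 passed between the co-cultures (9 of 9 with a negative value). Macrophages were the other cells in the culture. Their 12 markers summed to 1.32 to 3.31 CPM in the cells alone, to 4.58 to 8.97 CPM in the control libraries of day 1 and 49.6 CPM in that of day 2, and to 19.3 and 22.2 CPM in the STZ libraries of day 1 and 26.5 to 105 CPM in those of day 2. Lyz2 was the highest of these markers in every STZ library, and Mertk and Spi1 had no count in the control group. The library with 49.6 CPM of macrophage markers had 12.4 CPM of Il22, while those with 19.3 and 22.2 CPM had 367 and 410 CPM. On day 1 the macrophage sum and the cytokine genes were both higher in the STZ libraries, and the part of macrophage RNA in the result was not tested.

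Gamma-delta T cells and type 3 innate lymphoid cells also make IL-17 and IL-22. Of 9 gamma-delta markers, the constant region genes of the T cell receptor gamma chain made up most of the sum in the co-cultures. That sum was 16.4 to 46 CPM in the cells alone, 258 to 902 CPM in the control and 213 to 626 CPM in the STZ libraries. The 2 STZ libraries with the highest Il22, both of day 1, had the lowest sums of the co-cultures (213 and 223 CPM). The sum was lower on day 1 in the control group too, at 258 to 340 CPM against 902 CPM on day 2. It was 548 to 626 CPM in the STZ libraries of day 2, and the part of gamma-delta T cells in the result was not tested. Blk had no count in any co-culture, Trdv4 and Cd163l1 were at most 0.462 CPM, and Trdc was at 13.2 to 40.1 CPM in the co-cultures. Sox13 was higher in the co-cultures, with means of 0.164 CPM in the cells alone, 1.23 in the control and 1.81 in the STZ group. The means of 5830411N06Rik were 0.0224, 1.98 (SD 3.72) and 0.053 CPM in the same order. Of 7 markers of innate lymphoid cells, summed to 480 to 947 CPM in the control and 722 to 857 CPM in the STZ libraries, Zbtb16 had no count in any library, Tox2 none in the co-cultures and Ncr1 counts in 1 library. Most of that sum came from Id2 and Il7r, which T cells also express. Kit had no count in the cells alone and was at 21.5 to 39.5 CPM in the control and 44.6 to 67.9 CPM in the STZ libraries (edgeR adjusted p = 0.179). Tnfsf11 had no count in the cells alone either, with means of 2.06 CPM in the control and 3.25 CPM in the STZ group (edgeR adjusted p = 0.381). The 6 markers of CD8 T and NK cells summed to 42.3 to 102 CPM in the control and 57.5 to 80 CPM in the STZ libraries, and the 5 of B cells to at most 1.71 CPM in any co-culture. Islet endocrine RNA (6 markers) reached 153 and 114 CPM in replicates 2 and 4 of the STZ group and was at most 3.24 CPM in every other library. Replicates 2 and 4 had 51.4 and 228 CPM of Il22, and the part of these cells in the result was not tested.

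**Figure D5:**
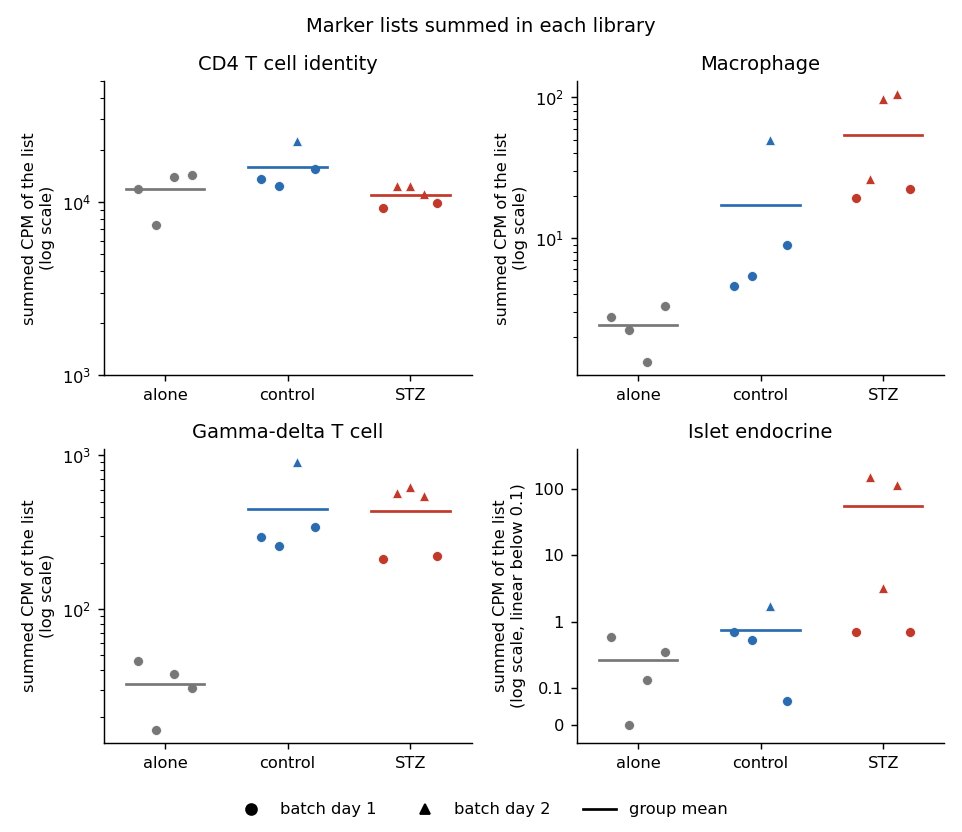
Summed CPM of 4 marker lists in each of the 13 libraries, on log axes (the islet endocrine axis is linear below 0.1). Circles are day 1, triangles day 2, and lines group means. The macrophage sum is 4.58 to 8.97 CPM in the control and 19.3 to 22.2 CPM in the STZ libraries of day 1, and the islet endocrine sum reaches 153 and 114 CPM in 2 STZ libraries of day 2.

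Likeness to Il22 and Il17a was ranked over 9312 genes whose mean log2 CPM was 1 or more. The members, repeated symbols, gene models, immunoglobulin and T cell receptor segments and mitochondrially encoded genes were left out beforehand. Among the genes ranked, those whose log2 CPM most resembled Il22 over the 13 libraries (Pearson's r, as a measure of likeness) were Tnfrsf8 (0.993), Hk2 (0.98), Serpine2 (0.979), Gatm (0.978) and Lilr4b (0.977). Tnfrsf8, which encodes the activation marker CD30, had no count in the cells alone and was at 2.74 to 7.42 CPM in the control and 19 to 38.4 CPM in the STZ libraries. Hk2, hexokinase of glycolysis, was at 13.4 to 26.8 CPM in the control and 40.6 to 125 CPM in the STZ libraries. Those most like Il17a were Ppp1r3b (0.955), Maged2 (0.954), Prxl2a (0.949), Lrp12 (0.949) and Gpi1 (0.943). Gpi1, another glycolytic enzyme gene, was at 177 to 230 CPM in the cells alone, 341 to 423 CPM in the control and 572 to 650 CPM in the STZ libraries. The libraries share the order of the 3 groups, which weighs heavily in r: over the 9 co-cultures alone 1 of the 5 genes named for Il22 (Tnfrsf8) and 0 of the 5 named for Il17a remained among the top 5.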

How the data were processed

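RNA of 13 libraries was analysed from tables that the authors deposited. The first holds estimated counts per gene, not normalized by the authors. About 11% of its values are not whole, so they were rounded. The second holds log2 values of 12236 genes, including 7 of the 9 members, that the authors adjusted in a way not given in the sources used here, and served as an alternative with limma 3.58.1. Per the labels' protocols, cDNA was made from 10 ng of RNA of integrity above 8 with a kit that does not keep the strand, and paired reads of 150 bases were aligned to GRCm38. DESeq2 is listed, with no version, in the submitters' processing notes. For the aligner, counter and annotation: not given in the sources used here. Positions are from GENCODE's annotation of GRCm38, and promoters from RefSeq.

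Counts were tested with edgeR 4.0.16 (R 4.3.3; filterByExpr, TMM, robust quasi-likelihood F test) in 1 model of group and batch day over all 13 libraries. A second model, in which each group had its own mean on each day, gave the effects within days and their difference. P-values were adjusted by Benjamini-Hochberg over 15781 genes with a threshold of 0.05. SE was obtained by dividing the log2 fold change by the root of F, 95% intervals use 9 (or 8) residual degrees of freedom, and log2 CPM has a prior count of 2. The libraries have no molecular identifiers, so limits from 3 counts cover counting error only. Fits were tested on simulated data.

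The 9 members, 7 pathway lists and 7 marker lists were chosen with earlier results of these data known. Named are the members, per pathway list the genes called between the co-cultures and up to 3 more of smallest p, and the 5 genes most like Il22 and Il17a, except 1 gene that is not reported here. Marker genes, and the other genes said to be so, were named after their values were seen. Gamma chain constant genes are named in the table as Trgc1, Trgc2 and Trgc4. Repeated symbols (684 entries) were kept as separate rows.

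Replicate numbers are shared between groups. Deviations from the group means correlated at 0.161 to 0.352 in the 4 pairs with equal numbers between the control-macrophage co-culture and the cells alone. These groups were therefore taken as paired in the replicate block, although 1 pair joins both days and a pair of different numbers reached 0.433. The main model has no pairing. The block also tied STZ libraries to the others by number. The alternatives were other scalings, filters, tools (DESeq2 1.42.0) and designs, GC offsets, and leaving out each library.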

Additional observations from a re-analysis of the deposited data

Results flagged for a closer look

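In 20 combinations of a member and a group, each with 4 or 5 libraries, 2 had a library far from the others of its group, both for Ccr6. About 1 in 20 groups is flagged in this way by chance. Control-macrophage replicate 1 was at 2.89 CPM, while the other 3 control libraries were at 0.771 to 0.986 CPM. STZ-macrophage replicate 4 was at 2.13 CPM, while the other 4 STZ libraries were at 0.564 to 0.804 CPM. Without control-macrophage replicate 1, the log2 fold change of Ccr6 between the co-cultures was 0.01 in place of -0.56.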

How the results depend on the processing

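The signs of the 9 members between the co-cultures held under every setting tried, except for Ccr6 (0.01 without control-macrophage replicate 1). Log2 fold changes ranged over 3.78 to 4.79 for Il22, 3.98 to 4.87 for Iltifb, 3.32 to 4.72 for Il17a, 1.94 to 2.89 for Il17f, 1.87 to 3.63 for Il23r, 1.9 to 2.77 for Il1r1, 0.61 to 1.86 for Rora, 0.28 to 1.76 for Ahr and -1.11 to 0.01 for Ccr6. The number of genes called (51) was 650 with DESeq2, 19 without the day term, 2698 with the co-cultures only, 88 in the authors' adjusted table with limma, 28 with GC content as an offset (chosen after seeing the data), and 0 to 582 when 1 library was left out. Members called were 5, 1, 6, 5 of 7 and 3 under these settings in that order. For the comparisons with cells alone, leaving out 1 library gave 5745 to 7760 genes for the control-macrophage and 5137 to 8043 for the STZ-macrophage co-culture.

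With a replicate block, 0 genes were called between the co-cultures (members 0 of 9, 8 of 9 positive), 3476 in the STZ-macrophage co-culture against cells alone, 2 between days and 0 for the difference between days; the numbers pair only the cells alone and the control-macrophage co-culture, where 5887 genes and the same 7 members were called with the block.

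Between days (497 genes), the count was 150 with median-ratio (RLE) scaling, 190 with library totals alone, 246 without a filter, 2620 with DESeq2, 4400 with the co-cultures only, 0 in the authors' adjusted table with limma, 158 with the GC offset and 5 to 2476 without 1 library. For the difference between days (1 gene), it was 0 with library totals, 404 with DESeq2, 1802 with the co-cultures only, 671 in the adjusted table and 0 to 243 without 1 library. Without control-macrophage replicate 3 that difference has no value. Pairs of cells-alone libraries, all of day 1, correlated at 0.869 to 0.9567 (Pearson's r of log2 CPM). Co-culture pairs of the same group and day correlated at 0.9601 to 0.9806, while the main model shares 1 estimate of the spread among the groups. The cause of the changes in these counts was not tested.

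Signs of values that did not pass turned as follows. Between days, leaving out 1 library gave -0.16 to 0.83 for Il17a, -0.54 to 0.44 for Il17f and -0.81 to 0.78 for Il23r, each lowest without control-macrophage replicate 3, and -0.33 to 0.69 for Ccr6, which was negative without control-macrophage replicate 4 (-0.05) and STZ-macrophage replicates 1 (-0.22) and 4 (-0.33). Il17f was also at -0.02 with library totals, 0 with the replicate block and -0.13 in the adjusted table, Ccr6 at -0.02 with library totals, and Ahr at -2.04 and Il1r1 at 0.17 with the replicate block. Between the co-cultures, leaving out 1 library gave -0.72 to 0.09 for Cxcr6, -0.21 to 0.06 for Traf3ip2 and -0.29 to 0.41 for Il10rb. Traf3ip2 and Il10rb were at 0.07 and 0.1 with library totals, 0.07 and 0.1 without a filter, and 0.06 and 0.09 with the co-cultures only, and Traf3ip2 was at 0.04 in the adjusted table and 0.02 with the GC offset. Csf2 was at 0.24 without the day term and Socs3 at -0.08 with the GC offset. Depth limits the members below about 1 CPM, such as Il17a in the control libraries.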

Other observations

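Ltb4r1, the leukotriene B4 receptor gene of the effector list, was too low in most libraries to be tested. It was at 16.8 CPM in STZ-macrophage replicate 1 and 1.83 CPM in replicate 5, the 2 STZ libraries of day 1, and at 0 to 0.177 CPM in the other 11 libraries. Hif1a, the hypoxia-inducible factor gene of the transcription factor list, was at 719 and 270 CPM in the same libraries and at 67.3 to 176 CPM in the other 7 co-cultures. Nqo1, a stress and aryl hydrocarbon receptor target gene, was lowest there, at 6.67 and 6.54 CPM, against 14.5 to 34.3 CPM in the other co-cultures. These genes were chosen after their values were seen and are given as values only.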
